A study of Mus musculus with 5 samples.

Results

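The genes described here encode the aminoacyl-tRNA synthetases, the enzymes that join each amino acid to its tRNA. They were taken by name from the deposited table: a single letter followed by ARS, with nothing, 1 or 2 after it, together with Farsa, Farsb, Eprs and Tarsl2. This gave 36 of the 12930 genes in the table, 21 for cytosolic and 15 for mitochondrial enzymes. A name ending in 2 was read as mitochondrial, except Tarsl2, a threonyl-tRNA synthetase-like enzyme counted with the cytosolic ones. Kars and Gars, which serve both compartments from a single gene, were counted as cytosolic. Lars2 is outside this choice, and Lars2 and Mars2 were not analysed here. All 36 genes had a value in each of the 4 siRNA libraries, so none was lost to missing values.

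The cells were OG2 mouse embryonic stem cells, whose strain label joins (CBA/CaJxC57BL/6J) and female 129Sv/Jae mice. All groups were kept for 24 h in N2B27 medium with LIF, PD0325901 and CHIR99021, then transfected at 50 nM siRNA, and spent the next 36 h in differentiation medium containing bFGF and Activin A. The siDhx30 group (2 libraries) was given siRNA against Dhx30, which encodes an RNA helicase of mitochondrial RNA granules, and the siTfam group (2 libraries) siRNA against Tfam, which encodes the packaging and transcription factor of mitochondrial DNA. The NC group (1 library) was labelled as negative control. Nothing in the labels says that replicates were separate cultures, so p-values cover only library-to-library spread, possibly technical. The culture consists of cells of a single line in bulk, so fewer cells of a kind and less RNA per cell cannot be told apart.

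Each gene has 1 deposited log2 ratio per siRNA library, read as a ratio to the single NC library. The header does not state its direction. It was read from the 842 incomplete genes, whose 1574 remaining values were without exception negative as deposited; of genes past 3 on the positive side 102 of 102 were complete, and past -3 on the negative side 20 of 124. A minimum count applied to the pair of libraries gives this pattern where the ratio is NC over siRNA, so the signs were turned, and every value below is siRNA over NC. With the sign as deposited, each direction against NC and between the siRNAs would turn round. Dhx30 lay at -0.40 and -0.20 in the siDhx30 libraries and Tfam at -0.28 and -0.02 in the siTfam libraries, with limma adjusted p of 0.998 and 0.987, so a knockdown of either transcript was not established. Of the defining pluripotency markers Nanog, Sox2 and Pou5f1 none was among the names in the table. Values were present for 3 of 9 listed naive markers (Esrrb, Tbx3 and Tfcp2l1). They are ratios to NC and not levels, so the cell type could not be checked. Of 7 listed fibroblast markers 3 had values (Col1a2, Thy1 and Vim). Read depth is unknown, so an abundant and a scarce transcript could not be told apart, and no counting interval is given.

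Cells make a separate set of these enzymes for each compartment, nearly all from separate nuclear genes. The cytosolic set charges tRNAs for the ribosomes of the cytoplasm, and several of its members sit in a multi-synthetase complex. The mitochondrial set is imported and charges the tRNAs encoded in mitochondrial DNA, so that the respiratory chain subunits encoded there can be made. Many cytosolic synthetase genes are known targets of ATF4, the transcription factor of the amino acid and integrated stress responses, which binds the C/EBP-ATF response element.

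The promoters were read for the letters of that element, since it is a known feature of many cytosolic synthetase genes. RefSeq promoter windows on GRCm38.p6, from 250 bases before to 50 bases after the start, were found for 26 of the 36 genes. The letters TGATGNAA, on either strand, occurred in 5 of 14 cytosolic genes (35.7%) and in 0 of 12 mitochondrial genes, against 4.51% of all 27025 genes with a window and 3.97% of all 32851 windows. The start of the window was not found in a GENCODE transcript of the gene for Dars, Kars, Sars and Sars2. These genes were counted as having no match. A match is a description of the letters and shows no binding. The 5 genes were Aars, Gars, Iars, Tars and Yars. The match nearest the start of each gene is shown with 10 bases on each side, 5′ to 3′ on the gene's strand, with the matching letters in capitals. In Yars they read as searched and in the other genes as the reverse complement.
Aars, after the start, chr8:111033841-111033868, plus strand: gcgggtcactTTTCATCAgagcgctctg
Gars, upstream, chr6:55037961-55037988, plus strand: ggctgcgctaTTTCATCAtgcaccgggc
Iars, after the start, chr13:49682127-49682154, plus strand: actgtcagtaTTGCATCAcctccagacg
Tars, upstream, chr15:11399656-11399683, minus strand: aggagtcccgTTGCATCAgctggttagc
Yars, after the start, chr4:129189896-129189923, plus strand: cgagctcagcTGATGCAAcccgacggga

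In Gars and Tars the match lies upstream of the start in both RefSeq and GENCODE, and 150 bases of context are shown for these genes. The match stands close to the start in both.
Gars, chr6:55037851-55038000, plus strand: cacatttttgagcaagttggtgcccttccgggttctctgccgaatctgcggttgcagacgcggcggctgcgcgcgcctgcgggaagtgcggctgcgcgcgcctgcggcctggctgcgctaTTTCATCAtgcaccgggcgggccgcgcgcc
Tars, chr15:11399666-11399815, minus strand: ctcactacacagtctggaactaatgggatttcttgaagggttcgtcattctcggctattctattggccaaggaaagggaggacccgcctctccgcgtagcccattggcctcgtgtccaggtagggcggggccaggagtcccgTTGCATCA

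The cytosolic synthetase transcripts lay close to the NC level in every siRNA library, and the mitochondrial ones were more scattered. Of 21 cytosolic genes 15 were within 0.2 of NC on the log2 scale in all 4 libraries, against 1 of 15 mitochondrial genes and 14.7% of all 12088 genes tested. The width of 0.2 was chosen after the values were seen, and the mitochondrial count is sensitive to it. Tars2 in siTfam replicate 2 (0.2002), Rars2 in siDhx30 replicate 2 (-0.2004) and Ears2 in siTfam replicate 1 (0.2035) lay just outside it. Within 0.3 the counts were 18 of 21 cytosolic (85.7%) and 9 of 15 mitochondrial genes (60%), against 30.5% of all genes. Both classes were thus nearer NC than all genes at that width. Within 0.1 the counts were 3 and 0, against 2.34%. Leaving out siDhx30 replicate 2 gave a mitochondrial count of 4 at 0.2 (18.8% of all genes), leaving out siTfam replicate 2 also 4 (21.4%), and leaving out siTfam replicate 1 gave 2 (17.8%). The median absolute log2 ratio of the cytosolic genes was 0.12, 0.06, 0.06 and 0.09 in siDhx30 replicates 1 and 2 and siTfam replicates 1 and 2, in that order, and that of the mitochondrial genes 0.08, 0.20, 0.16 and 0.20. All genes tested had 0.25, 0.20, 0.23 and 0.24. Cytosolic genes were thus below the median of all genes in each library, whereas siDhx30 replicate 1 was the library in which the mitochondrial genes were the closer of the classes to NC.

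**Figure D1:**
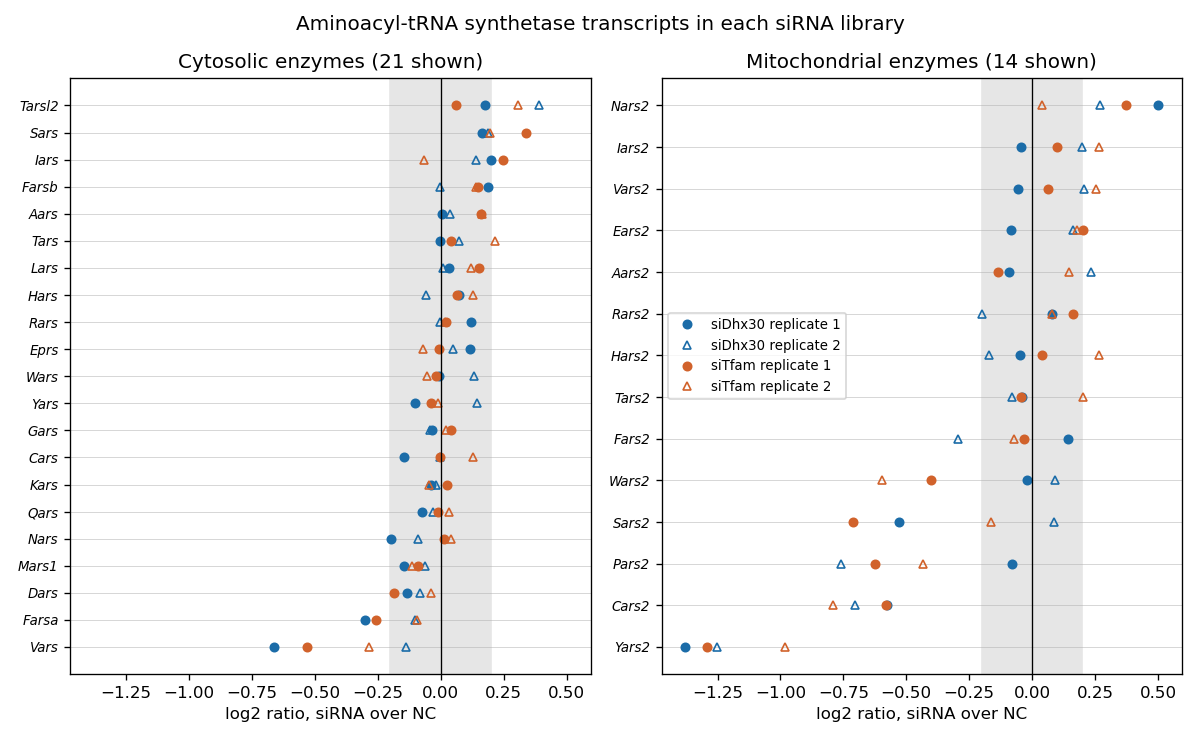
Log2 ratio of siRNA over NC (horizontal axis) for 35 of the 36 genes (rows, ordered by mean), with cytosolic enzymes on the left and mitochondrial enzymes on the right. Each point is 1 library, the grey band spans 0.2 on each side of NC, and the points of Yars2 all lie below -0.98 while most cytosolic genes stay in the band.

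**Figure D2:**
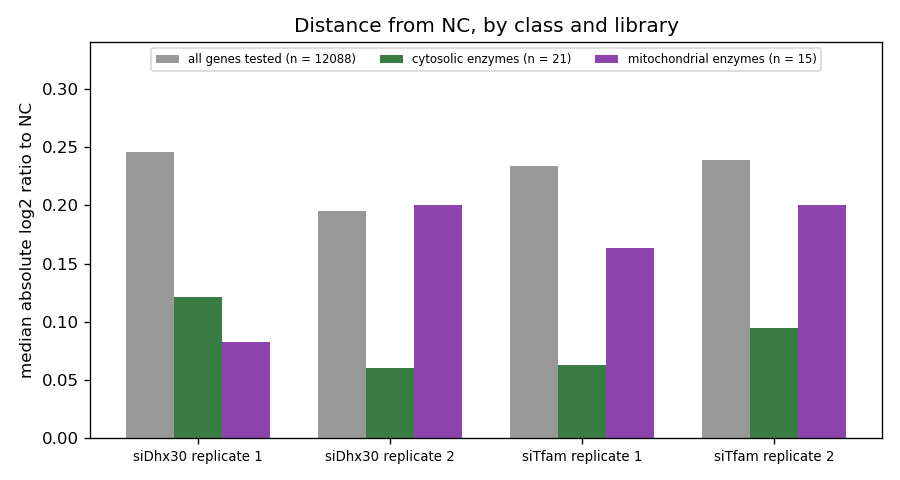
Median absolute log2 ratio to NC (vertical axis) of all genes tested, cytosolic enzymes and mitochondrial enzymes in each siRNA library. The cytosolic bars run from 0.06 to 0.12, below the bars of all genes at 0.20 to 0.25.

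The cytosolic genes also had the smallest spread between replicates. The median absolute difference between replicates was 0.09 in siDhx30 and 0.06 in siTfam for cytosolic genes, 0.24 and 0.19 for mitochondrial genes, and 0.23 and 0.24 for all genes. Abundance was not measured, so its part in this contrast was not tested. Median transcript length was 3066 bases for the cytosolic and 3366 for the mitochondrial genes, and median GC content 49.4% and 48.2%, so the classes lay near each other and near all genes (3105 bases and 49.4%) in both. With trends on length and GC content removed, 11 of 21 cytosolic and 1 of 15 mitochondrial genes were within 0.2 of NC, against 15.5% of all genes.

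No synthetase gene passed an adjusted p of 0.05 in any comparison, and neither did any of the 12088 genes (0 in siDhx30 against NC, 0 in siTfam against NC and 0 between the siRNAs, limma with Benjamini-Hochberg adjustment; no other tool was run). At an unadjusted p under 0.05 there were 2 of 36 genes in siDhx30 against NC, where 5.04% of all genes reached it, 2 of 36 in siTfam against NC (6.11% of all genes) and 1 of 36 in siDhx30 against siTfam (2.79%). The 2 genes against NC were Yars2 and Cars2, lower in both siRNAs (2.47% and 3.08% of all genes were), and the gene between the siRNAs was Wars2, higher in siDhx30 (1.29% were). None of the 36 was higher against NC (2.56% and 3.04%). These shares were near the background. The smallest adjusted p of the 36 genes was 0.64, 0.585 and 0.999 in these comparisons.

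Yars2, the mitochondrial tyrosyl-tRNA synthetase, had the lowest ratios of the family. It lies on GRCm38 chromosome 16, 16302965 to 16309640, plus strand (ENSMUSG00000022792.16), with no other GENCODE gene within 1000 bases. Its log2 ratios were -1.38 and -1.25 in the siDhx30 libraries and -1.29 and -0.98 in the siTfam libraries. All 4 libraries lay below NC, and the ranges of the siRNAs overlapped. Only 1.07% of all genes were below -0.9 in all 4 libraries, a limit set after the values were seen. The mean was -1.31 (SE 0.23; limma adjusted p = 0.64) in siDhx30, or 40.2% of NC, and -1.14 (SE 0.23; limma adjusted p = 0.585) in siTfam, or 45.5% of NC. Between the siRNAs the difference was -0.18, with a 95% interval of -0.69 to 0.34. The same NC library stands in all 4 ratios, so a level peculiar to that library and a lower level in the siRNA libraries cannot be told apart.

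Cars2, the mitochondrial cysteinyl-tRNA synthetase, was the other gene that lay more than 0.5 from NC on one side in all 4 libraries, which 5.44% of all genes did. Its log2 ratios were -0.58 and -0.70 in siDhx30 and -0.58 and -0.79 in siTfam. The libraries of the siRNAs overlapped, and all were below NC. The means were -0.64 (SE 0.21; limma adjusted p = 0.928) and -0.69 (SE 0.21; limma adjusted p = 0.726). The unadjusted p did not stay under 0.05 in siDhx30 when any 1 of the 4 libraries was left out (mean -0.70 without replicate 1 and -0.58 without replicate 2). In siTfam it stayed under 0.05 without siTfam replicate 1 (mean -0.79) but not without siTfam replicate 2 (mean -0.58) or either siDhx30 library (mean -0.69). Cars2 (ENSMUSG00000056228.10; chromosome 8, 11513977 to 11550783, minus strand) overlaps Naxd on the other strand, whose ratios were -0.19, -0.37, -0.06 and -0.21. Whether counting used strand is not given in the sources used here, and reads of the shared stretch cannot be assigned. In all, 21 of the 36 genes overlap another GENCODE gene, 18 of them on the opposite strand.

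Pars2, the mitochondrial prolyl-tRNA synthetase, also lay below NC throughout, but with a wide spread. Its log2 ratios were -0.08 and -0.76 in siDhx30 and -0.63 and -0.43 in siTfam, with means of -0.42 (SE 0.35) and -0.53 (SE 0.35). The replicates of siDhx30 differed by more than the mean itself. Sars2, for serine, was below NC in 3 of 4 libraries, at -0.53 and 0.08 in siDhx30 and -0.71 and -0.16 in siTfam. In each siRNA the replicate numbered 1 was the lower, and Sars2 has a GC content of 60.1%.

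Wars2, the mitochondrial tryptophanyl-tRNA synthetase, had the largest difference between the siRNAs of the 36 genes. Its log2 ratios were -0.02 and 0.09 in siDhx30 and -0.40 and -0.60 in siTfam. The groups did not overlap: the siDhx30 libraries sat at the NC level and both siTfam libraries below it. The difference of siDhx30 minus siTfam was 0.53 (SE 0.16; 95% interval 0.08 to 0.99; limma adjusted p = 0.999), and 94% of all genes had a lower difference. NC cancels in this difference. Without siDhx30 replicate 1 or 2 it was 0.59 or 0.48, without siTfam replicate 1 or 2 it was 0.63 or 0.44, and the unadjusted p was under 0.05 in none of these. Against NC, siTfam had a mean of -0.50 (SE 0.20; limma adjusted p = 0.847). Wars2 (ENSMUSG00000004233.14) lies on chromosome 3, 99141068 to 99239186, plus strand. It overlaps Gm43024 and Gm42717 on the same strand and Gm18982 and Mir6481 on the other, none of which had values. Its cytosolic counterpart Wars was at -0.01 and 0.13 (siDhx30) and -0.02 and -0.06 (siTfam), a difference of 0.10. By their means, the 6 complete of 9 listed primitive endoderm markers were below NC in siTfam (median -0.54), where 47.3% of all genes were above it. All 6 had higher means in siDhx30 than in siTfam (median difference 0.45, 49.8% of all genes), and 3 of 6 did not overlap (14.7% of all genes). Lamc1 was at 0.20 and -0.24 in siTfam. Unlike Wars2, Col4a2 was below NC in siDhx30 too, at -0.79 and -1.07. Gata4 and Sox17 had no values and Gata6 was incomplete. By their means, the 3 measured naive markers went the other way between the siRNAs. Only Tbx3 did so without overlap (1 of 3, against 14.3% of all genes). Tfcp2l1 was at -0.24 and 0.03 in siDhx30 and -1.14 and 1.71 in siTfam. The part of these markers in the Wars2 result was not tested.

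Of the mitochondrial enzymes above NC, Nars2, for asparagine, was the highest by mean in both siRNAs. Its log2 ratios were 0.50 and 0.27 in siDhx30 and 0.37 and 0.04 in siTfam, the only mitochondrial gene above NC in all 4 libraries. The means of 0.38 (SE 0.25) and 0.21 (SE 0.25) had 95% intervals that included 0. Ears2, for glutamate, lay at -0.08 and 0.16 (siDhx30) and 0.20 and 0.18 (siTfam), so both siTfam libraries were above the siDhx30 libraries, with a difference of -0.15. Hars2, for histidine, lay at -0.05 and -0.17 (siDhx30) and 0.04 and 0.26 (siTfam), and had the lowest difference between the siRNAs, -0.26 (95% interval -0.73 to 0.21). Hars2 overlaps the start of its cytosolic counterpart Hars on the other strand, and reads there cannot be assigned without strand. Aars2, Fars2, Iars2, Rars2, Tars2 and Vars2 had means between -0.08 and 0.18.

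Among the cytosolic enzymes, Vars, the valyl-tRNA synthetase, lay farthest from NC by its mean over the 4 libraries. Its log2 ratios were -0.66 and -0.14 in siDhx30 and -0.53 and -0.28 in siTfam. All were below NC, with replicate 1 lower than replicate 2 in each siRNA, and the mean of -0.40 (SE 0.31) in siDhx30 and -0.41 (SE 0.31) in siTfam lay within the spread. With length and GC trends removed the siDhx30 mean was -0.23, nearer NC than that of Tarsl2 at 0.28, and it was -0.14 without siDhx30 replicate 1. Vars has a GC content of 60.9%. Farsa, which encodes the alpha subunit of the phenylalanyl enzyme, was at -0.30 and -0.10 in siDhx30 and -0.26 and -0.09 in siTfam. Farsb, the beta subunit of the same enzyme, was at 0.19 and -0.0021 in siDhx30 and 0.15 and 0.14 in siTfam. The siTfam libraries thus had the subunits on opposite sides of NC, with 95% intervals that included 0 for each.

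Sars, for serine, was the highest cytosolic gene in siTfam, at 0.34 and 0.20, after 0.17 and 0.19 in siDhx30. Its 4 values were all above NC, with means of 0.18 (SE 0.19) in siDhx30 and 0.27 (SE 0.19) in siTfam. Tarsl2 had 0.18 and 0.39 (siDhx30) and 0.06 and 0.31 (siTfam), with means of 0.28 and 0.19. Its conventional counterpart Tars had -0.0038 and 0.07 (siDhx30) and 0.04 and 0.21 (siTfam). Iars, for isoleucine, was at 0.20 and 0.14 in siDhx30 and 0.25 and -0.06 in siTfam. In all, 4 cytosolic and 1 mitochondrial gene were above NC in all 4 libraries (20.1% of all genes were), and 4 cytosolic and 3 mitochondrial genes below it (22.4% of all genes). The enzymes that serve both compartments barely departed from NC: Gars ran from -0.04 to 0.04 over the 4 libraries and Kars from -0.04 to 0.03. In siDhx30 both libraries were below NC for 15 of 36 genes (34.9% of all genes) and above it for 7 (32.1%), and in siTfam for 13 (34.4%) and 16 (32%).

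The cytosolic genes with the response element letters had a median log2 ratio of 0.02 in siDhx30 and 0.09 in siTfam (5 genes), and the 9 with a window and no match had -0.03 and -0.01. The difference between these sets was not tested. Aars, for alanine, lay at 0.01 and 0.04 (siDhx30) and 0.16 and 0.16 (siTfam). Its siTfam libraries were both above its siDhx30 libraries, with a difference of -0.14 (95% interval -0.54 to 0.26). Yars lay at -0.10 and 0.14 (siDhx30) and -0.04 and -0.01 (siTfam), so its groups overlapped.

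The median log2 ratio of the cytosolic genes was 0.02 in siDhx30 (12 of 21 above NC) and 0.03 in siTfam (13 of 21), and that of the mitochondrial genes -0.06 (6 of 15) and 0.01 (8 of 15). All genes tested had medians of -0.01 (48.1% above NC) and -0.02 (47.3% above NC). In siDhx30 the cytosolic median was -0.0039 without replicate 1 and -0.0068 without replicate 2. Its positive sign thus appeared only with both libraries averaged. In siTfam the mitochondrial median was 0.05 without replicate 1 and -0.05 without replicate 2, so its sign depends on the library. Between the siRNAs, 22 of 36 genes were lower in siDhx30 than in siTfam and 14 higher (49.8% of all genes were higher), with medians of -0.03 for cytosolic, -0.04 for mitochondrial and -0.0015 for all genes. The siDhx30 libraries were both below the siTfam libraries for 9 of 36 genes, 7 of them cytosolic, where 14.3% of all genes had that order, and both above for 3 of 36, against 14.7%. The 7 cytosolic genes were Nars, Aars, Cars, Lars, Sars, Gars and Qars, with differences from -0.17 to -0.06 and 95% intervals that each included 0. Nars, for asparagine, was at -0.20 and -0.09 (siDhx30) and 0.01 and 0.04 (siTfam), the lowest difference of the cytosolic genes. Eprs, the bifunctional glutamyl-prolyl enzyme, had the opposite order, at 0.12 and 0.05 in siDhx30 and -0.01 and -0.07 in siTfam.

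**Figure D3:**
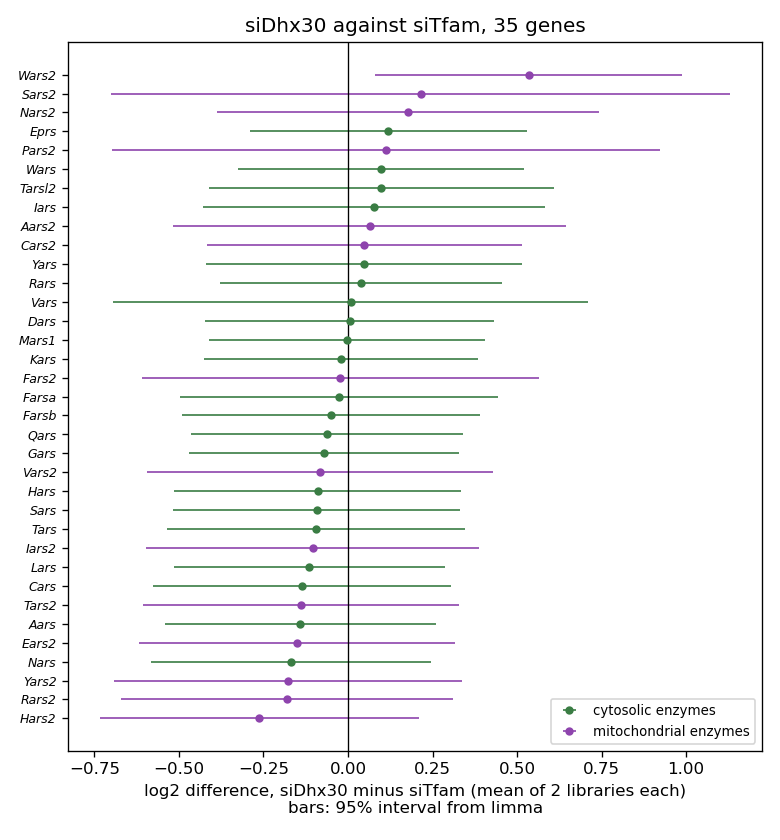
Log2 difference of siDhx30 minus siTfam (horizontal axis) for 35 of the 36 genes, as the mean of 2 libraries on each side with the 95% interval from limma. The interval of Wars2, from 0.08 to 0.99, is the one that leaves out 0.

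Set beside the cytosolic gene for the same amino acid, the mitochondrial gene had the lower ratio in all 4 libraries in 6 of 15 pairs and the higher ratio in all 4 in 2. These are differences between ratios to NC, not between levels of the enzymes. The same NC library stands in all 4 differences of a pair. No share for other gene pairs was computed, so whether this split is particular to the family was not tested. Eprs served as the counterpart of both Ears2 and Pars2, and Farsa as that of Fars2. The tyrosine pair was the farthest apart, with Yars2 minus Yars at -1.28 and -1.40 in siDhx30 and -1.25 and -0.97 in siTfam. The cysteine pair followed, with Cars2 minus Cars at -0.43 and -0.70 in siDhx30 and -0.58 and -0.92 in siTfam. The valine pair ran the other way, with Vars2 minus Vars at 0.61 and 0.35 in siDhx30 and 0.59 and 0.54 in siTfam. The pairs for serine, proline, tryptophan and threonine were also lower on the mitochondrial side in all 4 libraries. The threonine pair was lower by 0.01 to 0.15, and Wars2 minus Wars was only -0.01 and -0.04 in siDhx30.

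**Figure D4:**
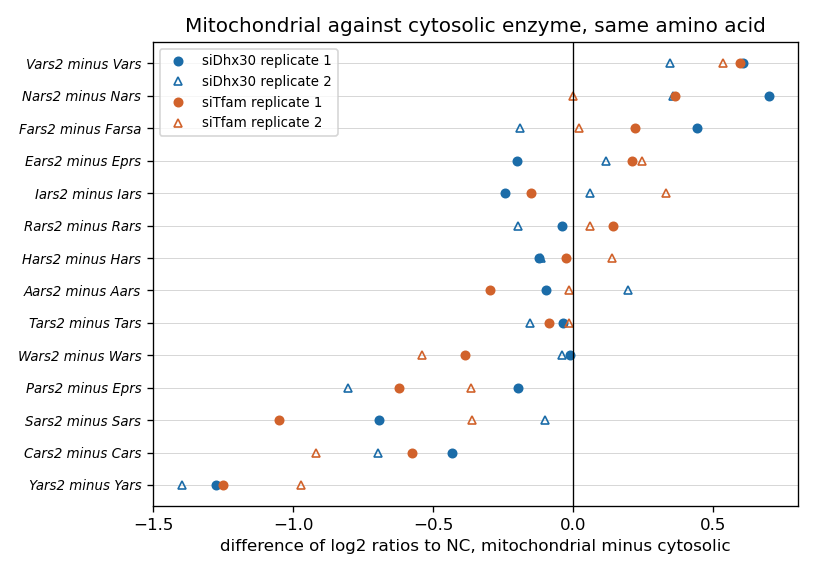
Difference of log2 ratios to NC, mitochondrial minus cytosolic gene (horizontal axis), for 14 of the 15 pairs that serve the same amino acid; each point is 1 library. The tyrosine pair lies between -1.40 and -0.97 and the valine pair between 0.35 and 0.61.

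Genes that work beside the synthetases were read from the lists set out for this family. Of the 3 scaffold proteins of the multi-synthetase complex, Aimp2 lay at -0.13 and -0.06 in siDhx30 and -0.19 and -0.23 in siTfam, and Aimp1 within 0.11 of NC throughout. Eef1e1 was the most scattered of the 3, at -0.27 and 0.34 in siDhx30 and -0.05 and -0.03 in siTfam. Of the 10 measured mitochondrial translation factors (of 11 listed), 1 was lower at an unadjusted p under 0.05 in each siRNA and 0 were higher, where 2.47% and 3.08% of all genes were lower. It was Mtrf1, a mitochondrial release factor, at -0.93 and -0.83 in siDhx30 and -0.52 and -0.68 in siTfam (limma adjusted p = 0.695 and 0.776). Their list median was -0.01 in siDhx30 and -0.07 in siTfam. The 3 measured genes of mitochondrial amidation and formylation of charged tRNAs (Qrsl1, Gatb and Mtfmt) had medians of 0.05 and 0.18, and none reached an unadjusted p of 0.05. Nor did any of the 5 measured cytosolic elongation factors (medians -0.16 and -0.06), of which Eef1b2 was the lowest at -0.55 and -0.45 in siDhx30 and -0.53 and -0.25 in siTfam. The 7 measured tRNA end and wobble base maturation genes (medians -0.08 and -0.10) and the 3 measured deacylation genes (-0.09 and 0.07) held none either.

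The amino acid genes around ATF4 were measured in the same way. Of 8 measured amino acid sensing genes (of 15 listed), Atf4 lay at -0.14 and 0.08 (siDhx30) and 0.05 and 0.21 (siTfam). The list median was -0.0049 in siDhx30 and 0.18 in siTfam. Eif4ebp1, which encodes a repressor of cap-dependent translation, was below NC throughout, at -0.87 and -0.50 (siDhx30) and -0.69 and -0.42 (siTfam), with means of -0.69 and -0.55 (limma adjusted p = 0.998 and 0.891). One member, Nupr1, a stress-induced chromatin protein gene, was at 0.12 and -0.09 (siDhx30) and 0.94 and 0.74 (siTfam), a mean of 0.84 in siTfam (limma adjusted p = 0.676) and a difference between the siRNAs of -0.82 (limma adjusted p = 0.999). At an unadjusted p under 0.05 it was 1 of 8 higher in siTfam against NC (3.04% of all genes were) and 1 of 8 lower in siDhx30 against siTfam (1.5%). The 15 amino acid synthesis genes had medians of -0.02 in siDhx30 and 0.12 in siTfam. Above NC were 5 and 13 of 15, against 48.1% and 47.3% of all genes. Between the siRNAs, 12 of 15 were lower in siDhx30 than in siTfam (median difference -0.14), where 49.8% of all genes were higher. Asns, asparagine synthetase, lay at 0.02 and -0.04 (siDhx30) and 0.47 and 0.27 (siTfam), a difference of -0.38 (limma adjusted p = 0.999). Earlier results of these same data already showed this direction and were known when the list was chosen, so the counts are no separate support. The 9 measured amino acid transporters had medians of -0.01 and 0.01. None of the synthesis or transport genes reached an unadjusted p of 0.05 in any comparison. Ddit3, another stress gene, overlaps the cytosolic methionine enzyme gene Mars1 on the other strand. Ddit3 lay at -0.58 and 0.15 in siDhx30 and 0.29 and 0.13 in siTfam, and Mars1 between -0.15 and -0.06 in all 4 libraries.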

How the data were processed

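The authors deposited log2 fold values, 1 column per siRNA library and none for NC, per the file headers. Tools listed in the submitters' processing notes are bcl2fastq, HISAT2, featureCounts and DESeq2, on GRCm38. Nothing was assumed about their settings or about strand use, which could not be found. No description of a low-value filter was found either, but the reading of the sign assumes a minimum count. Every value column was used.

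Signs were turned to siRNA over NC. limma 3.58.1 (R 4.3.3, robust=TRUE) was fitted to the 12088 complete genes with NC as a column of zeros and 1 coefficient per group, which leaves 2 residual degrees of freedom and assumes that NC varies like the siRNA libraries. p-values were adjusted by Benjamini-Hochberg over all genes, at 0.05. The fit was tested on simulated data. Members and lists were chosen with earlier results of these data known. Named in full were, per comparison, the 4 highest and 4 lowest members with both replicates on one side and those with an unadjusted p under 0.05; from each list up to 2 genes with the smallest p could be named. Other members are named where a count needs them, and Atf4 was chosen as the namesake of its response. One member is counted but not reported by name here. Positions are from GENCODE M21 (GRCm38), where 12660 of 12930 names matched; Mars1 is Mars there, matched through RefSeq. Alternatives left out each siRNA library, blocked on the replicate number, kept incomplete genes, dropped mitochondrially encoded ones, centred libraries, removed length and GC trends, set robust=FALSE, or left out Kars, Gars and Tarsl2.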

Additional observations from a re-analysis of the deposited data

How the results depend on the processing

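No gene passed an adjusted p of 0.05 in any comparison under any alternative fitted. The siRNA groups share replicate numbers, and deviations from the group means correlated at 0.254 across 12088 genes, but with 2 pairs these count as shared numbers only. With the replicate block, 0 genes passed in each comparison, and 2, 2 and 1 of the 36 genes had an unadjusted p under 0.05, as without it, while over all genes that count went from 609 to 899, from 739 to 1031 and from 337 to 566. Without a replicate, an arm holds 1 library, assumed to vary like the others: the 36 genes then held 1 to 1 with an unadjusted p under 0.05 in siDhx30 against NC, 1 to 2 in siTfam against NC and 0 to 0 between the siRNAs. All 230 refits of the 23 single-gene values kept their direction, but most could not have reversed it. Blocking, robust=FALSE, keeping incomplete genes and dropping mitochondrially encoded ones left each mean as it was. The genes were picked with both replicates on one side, or with siRNA groups that did not overlap, so leaving out a library could not turn them. Only centring and removing the length and GC trends could. In siDhx30 against NC the cytosolic median ran from -0.0068 to 0.0209 without 1 library, and was 0.0311 with centred libraries and 0.0130 with length and GC trends removed; the mitochondrial median ran from -0.0615 to -0.0506, and was -0.0513 and -0.0284 with these settings. In siTfam against NC the cytosolic median ran from 0.0206 to 0.0259, and was 0.0360 and 0.0399, or 0.0228 without Kars, Gars and Tarsl2; the mitochondrial median ran from -0.0460 to 0.0528, and was 0.0868 with the trends removed. Between the siRNAs the cytosolic median ran from -0.0657 to -0.0236, and was -0.0309 with the trends removed and -0.0388 without Kars, Gars and Tarsl2; the mitochondrial median ran from -0.1354 to -0.0152. The causes were not tested. The count near NC in all libraries was 3 cytosolic and 0 mitochondrial genes at a width of 0.1, 9 mitochondrial genes at 0.3 and 2 mitochondrial genes with centred libraries; without 1 library it was 15 to 17 cytosolic and 1 to 4 mitochondrial genes. These counts and widths were chosen after seeing the data. The paralog protein identities were not run. Depth is unknown and limits every ratio.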
